A study of Mus musculus with 15 samples.

Results

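The comparison set 2 odorant pairs against each other. Mice smelled either acetophenone with decanal or octanal with cis-3-hexenol, and messenger RNA bound to ribosomes with phosphorylated S6 was sequenced from the olfactory epithelium. The 6 libraries of the first pair (A/D below) are 3 from mice given both odorants on 1 paper (A+D) and 3 from mice given them on separate papers (A&D). The 6 of the second pair (O/C) are 3 O+C and 3 O&C libraries, delivered in the same 2 ways. These are 12 of the 15 libraries in all, and every group mean counted equally. The other 3 are Control libraries from mice given papers without odorant. All mice were wild-type C57BL/6J males, 8 weeks of age, kept without odor for 4 hours and then exposed to the papers for 90 minutes. The odor groups received 10 µL of each odorant, and separate papers lay about 1 mm apart. No group received a single odorant, so a difference belongs to a pair and not to 1 of its 2 compounds, and the no-odor mice give the level without stimulation. The labels name 3 biological replicates per group and do not say whether more than 1 mouse went into a library, so p-values measure the spread between these libraries.

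Each mature olfactory sensory neuron expresses 1 odorant receptor gene, and an odorant activates the neurons whose receptors bind it. Activated neurons phosphorylate ribosomal protein S6, so precipitating that protein enriches the transcripts of active neurons, their receptor among them. The receptors fall into class I, the receptors related to those of fish, and the larger class II, and both are grouped into families by sequence, here the MOR families. Acetophenone is an aromatic ketone, decanal and octanal are straight-chain aldehydes of different length, and cis-3-hexenol is an unsaturated alcohol with the smell of cut leaves.

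The libraries held 22704193 to 25287077 counts. Levels are in CPM, the count scaled to a common library size by TMM. A log2 fold change is A/D minus O/C, so a positive value is higher in A/D, and a gene is called when its adjusted p from edgeR is below 0.05. Olfactory neurons were present in every library: Omp, a marker of mature neurons, lay between 4205 and 10092 CPM. Obp2a, a secreted gland protein, was below 10 CPM in 5 libraries (1 of Control, 2 of A/D, namely A+D 2 and A&D 1, and 2 of O/C, namely O&C 1 and O&C 3). Gad1, a marker of olfactory bulb interneurons, was above 1 CPM in all 3 A+D libraries, in A&D 2 and in O&C 1. A+D 2 stood apart: its correlation with the other libraries averaged 0.971, where all others reached 0.982 to 0.987, and ribosomal protein genes took 2.15% of its counts. Within each group, the only pairs compared, no pair of libraries agreed closely enough to be a duplicate.

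Of 19229 genes tested, 3032 (15.8%) were called, 1296 higher in A/D (6.74%) and 1736 higher in O/C (9.03%). Among 867 tested receptors, of 1108 intact receptor genes in the table, 173 were higher in A/D (20%) and 118 higher in O/C (13.6%). In a bulk precipitate, a difference in the number of neurons captured and one in the RNA per neuron cannot be told apart. The receptor differences were large. The 173 had a median log2 fold change of 1.17 and the 118 one of -1.67, and 45 and 44 of them passed a 4-fold difference. In 81 of the 173 and 88 of the 118 the 6 libraries of one pair did not overlap the 6 of the other. Over all tested genes, called or not, 3.25% and 4.66% did not overlap (7.92% in either direction). These shares are not on the base of called receptors. Over tested receptors, called or not, 163 of 760 in class II and 5 of 89 in class I did not overlap, in either direction. Of 18314 genes outside the receptors only 5 and 6 called ones passed a 4-fold difference, with medians of 0.47 among 1120 genes higher in A/D and -0.40 among 1612 higher in O/C. The median of all receptors was 0.32 and that of all genes 0.03. When TMM used only the receptors (scaling on the receptors alone), all genes moved to a median of -0.17, and 207 genes were higher in A/D and 3561 in O/C, with 107 and 140 receptors. Without the 5 libraries low in Obp2a, 271 and 483 genes and 88 and 105 receptors were called. Single libraries moved the counts over all genes. Leaving out O&C 3 gave 553 higher, A&D 1 gave 678 and 1103, O+C 1 gave 715 and 1118, and A+D 1 gave 1984 higher.

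The receptors with the largest differences toward acetophenone and decanal were low with octanal and cis-3-hexenol and without odor. Olfr923 (ENSMUSG00000044798), a receptor reported for acetophenone, ran from 12 through a median of 24.9 to 29.2 CPM in A/D, from 0.0867 through 0.543 to 0.778 CPM in O/C and from 0.537 to 0.798 CPM in Control. Every A/D library lay above every O/C and Control library, and the log2 fold change was 5.48 ± 0.30 (SE, edgeR adjusted p = 3.91e-09). Olfr1377, also reported for acetophenone, ran from 11.6 through 17.1 to 24.9 CPM in A/D and from 0.267 through 0.475 to 1.37 CPM in O/C (4.82 ± 0.28, edgeR adjusted p = 5.27e-09). Its nearest relative by coding sequence, Olfr51, is 89.3% identical to it and gave 178 counts over the 6 A/D libraries, 3 over the 6 O/C libraries and 1 over Control. That is a ratio of 59.8 between the pairs, with an exact 95% interval of 20.1 to 293 that covers counting error only. Olfr983, another acetophenone receptor, ran from 24.4 through 34.6 to 47.2 CPM in A/D and from 1.24 through 1.95 to 2.45 CPM in O/C (4.17 ± 0.16, edgeR adjusted p = 1.38e-11). It stood at 3.19 to 3.64 CPM in Control, above each O/C library and below each A/D library.

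A list of 6 receptors reported for acetophenone was drawn up with earlier results of these data known, so it is no independent evidence. All 6 were called higher in A/D, with a median log2 fold change of 4.49, and none of the 6 overlapped between the pairs. The smallest of these differences was that of Olfr922, which ran from 1.28 through 2.61 to 4.66 CPM in A/D and from 0.161 through 0.448 to 0.564 CPM in O/C (2.71 ± 0.27, edgeR adjusted p = 2.56e-06). Olfr160, known as the M72 receptor and long used as a model acetophenone receptor, had 3.01 ± 0.29, with 2.83 to 7.87 CPM in A/D and 0.217 to 0.924 CPM in O/C. The other receptors among the 12 largest were Olfr1026 (5.13), Olfr145 (4.81, reported for acetophenone), Olfr874 (4.77), Olfr876 (4.75), Olfr904 (4.58), Olfr881 (4.48), Olfr744 (4.28) and Olfr889 (4.25), with edgeR adjusted p from 1.17e-10 to 0.000257. All 12 kept their calls in every alternative fit that tested them.

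**Figure D1:**
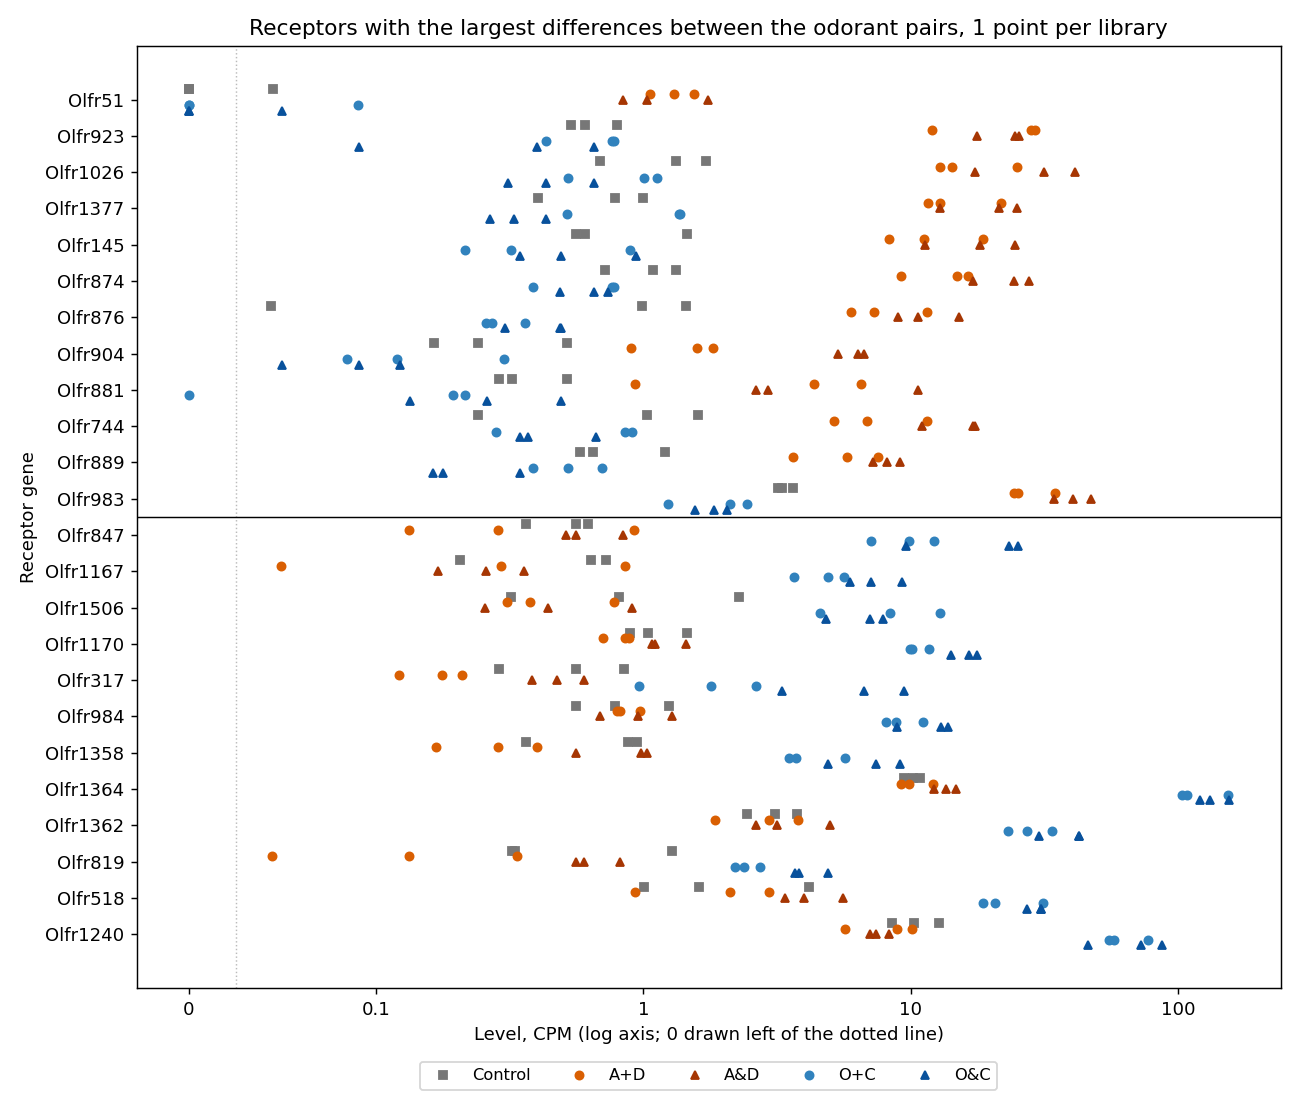
Level in CPM on a log axis of the 12 receptors with the largest difference in each direction, 1 point per library, coloured by group (3 libraries each); values of 0 are drawn left of the dotted line. Above the black line the orange A/D points lie to the right of all blue O/C points, and below it the order is turned. Control (grey squares) lies near the low pair for most of these receptors.

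Toward octanal and cis-3-hexenol the largest difference was that of Olfr847 (ENSMUSG00000059821). It ran from 7.1 through 11 to 25.2 CPM in O/C, from 0.133 through 0.536 to 0.923 CPM in A/D and from 0.364 to 0.62 CPM in Control (-4.66 ± 0.34, edgeR adjusted p = 1.47e-07). Every O/C library lay above every other library. Olfr1364, of family MOR256, ran from 103 through 126 to 154 CPM in O/C and from 9.22 through 12.1 to 14.8 CPM in A/D, with Control at 9.46 to 10.8 CPM (-3.44 ± 0.11, edgeR adjusted p = 2.82e-12). The A/D and Control libraries overlapped, and every O/C library was above both. Olfr1362 of the same family ran from 23.1 to 42.7 CPM in O/C and from 1.86 to 5.0 CPM in A/D (-3.35 ± 0.19). Olfr1170, of family MOR174, ran from 9.9 to 17.7 CPM in O/C and from 0.709 to 1.44 CPM in A/D (-3.71 ± 0.15, edgeR adjusted p = 2.54e-11).

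Olfr2, the I7 receptor known for its response to octanal and other aldehydes, ran from 18.3 through 19.9 to 21.2 CPM in O/C, from 3.03 through 3.51 to 4.49 CPM in A/D and from 3.19 to 4.83 CPM in Control. The A/D libraries, whose mice also smelled an aldehyde, overlapped Control. The difference between pairs was -2.45 ± 0.12 (edgeR adjusted p = 2.34e-10). The other 8 of the 12 largest toward O/C were Olfr1167 (-4.16), Olfr1506 (-3.87), Olfr317 (-3.54), Olfr984 (-3.51), Olfr1358 (-3.48), Olfr819 (-3.22), Olfr518 (-3.16) and Olfr1240 (-3.06). All 12 kept their calls in every alternative fit. The counts of Olfr1506 and Olfr819 were whole numbers in none of the 15 libraries, so reads may be split between them and a similar gene, which leaves their values uncertain. This mark, called shared reads here and set where counts were whole in fewer than 8 libraries, was on 42 of the 173 receptors higher in A/D and 32 of the 118 higher in O/C.

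The 2 directions differed in how the receptors stood against Control, which both pairs share. In edgeR, A/D minus Control called 80 receptors higher (9.23%, beside 0.962% of all genes) and none lower (beside 0.26% of all genes), with 162 receptors at an unadjusted p under 0.05 in either direction, while 1.22% of all genes were called. O/C minus Control called 126 receptors higher (14.5%, beside 10.1% of all genes) and 104 lower (12%, beside 7.04%). The median of all receptors was -0.37 in O/C minus Control (all genes -0.03) and -0.04 in A/D minus Control (all genes 0.01). Of the 118 receptors higher in O/C, 96 had an O/C mean over 2 times their Control mean, and in 100 every O/C library exceeded every Control library. Only 6 had an O/C mean within 1.5 times the Control mean. Of the 173 receptors higher in A/D, 68 had an A/D mean over 2 times Control and in 66 every A/D library exceeded every Control library, while 91 had an A/D mean within 1.5 times Control. In 34 of the 173 the O/C mean was under 0.5 of Control, and in 47 every O/C library was below every Control library. The corresponding counts of A/D below Control among the 118 were 2 and 1. These counts are descriptions under TMM over all genes and were not repeated with scaling on the receptors alone. The difference between the directions was not tested.

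Olfr655, a class I receptor, was among the 34 with an O/C mean under 0.5 of Control, though its O/C and Control libraries overlapped. It ran from 2.18 through 2.42 to 2.69 CPM in A/D, from 1.45 to 3.83 CPM in Control and from 0.434 through 1.1 to 2.06 CPM in O/C. The A/D libraries all fell inside the Control range, and the difference between pairs was 1.17 ± 0.30 (edgeR adjusted p = 0.0155), a call lost without O&C 3 or without the libraries low in Obp2a. Olfr147, a class II receptor named after its values were seen, had 1.02 to 3.23 CPM in A/D, 0.702 to 1.4 CPM in Control and 0.173 to 0.739 CPM in O/C (2.32, edgeR adjusted p = 0.000143). In 6 receptors both held, with A/D over 2 times and O/C under 0.5 of Control. They include Olfr876, Olfr904 and Olfr889 of the 12 largest. The number of receptors with at least 10 counts was 710 to 812 in A/D, 662 to 758 in O/C and 746 to 839 in Control, ranges that overlap.

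By class, 158 of 760 class II receptors were higher in A/D and 109 in O/C, with a median over the class of 0.31. With scaling on the receptors alone the class II counts were 98 and 130, and without the libraries low in Obp2a they were 87 and 98, so the larger count was that of O/C in both. Of 89 class I receptors 13 were higher in A/D and 4 in O/C, with a median of 0.43. With scaling on the receptors alone the class I counts were 9 and 4, and without the libraries low in Obp2a they were 1 and 3, so the larger count turned in the second of these. Olfr556 was the class I receptor with the firmest call toward A/D, at 2.97 to 5.99 CPM against 1.30 to 2.72 CPM in O/C (1.30 ± 0.18, edgeR adjusted p = 0.0002). Toward O/C, Olfr628 (-2.62) and Olfr599 (-1.61) were called and did not overlap between the pairs. Receptor pseudogenes are transcribed copies without an intact reading frame. Of 48 tested, 3 were higher in A/D (6.25%, beside 6.74% of all genes) and 6 in O/C (12.5%, beside 9.03%), near the shares of all genes. Olfr1025-ps1 had 7.44 to 37.2 CPM in A/D and 0.737 to 2.06 CPM in O/C (3.56 ± 0.24), in the same family as Olfr1026 (MOR196). Of the 5 trace amine-associated receptors tested, the amine sensors of the same tissue, Taar7a had the smallest edgeR adjusted p (0.454, with a log2 fold change of -0.50 ± 0.42).

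Related receptors tended to lean to the same pair, and 2 families stand for the 2 directions. They were chosen after their values were seen. Their counts are read beside 20% of all tested receptors higher in A/D and 13.6% higher in O/C (6.74% and 9.03% of all genes). In MOR106, 9 of 13 tested members were higher in A/D and none in O/C. Olfr744 ran from 5.14 to 17.4 CPM in A/D and from 0.281 to 0.904 CPM in O/C (4.28 ± 0.36), Olfr745 had 2.73 and Olfr746 had 2.02, while Olfr736 had 0.09 (edgeR adjusted p = 0.835) and Olfr748 had 0.27 (0.492). The counts of 7 of the 13 carried the mark of shared reads, 5 of the called ones among them. In MOR256, the largest family, 17 of 44 members were higher in O/C and 5 in A/D, with a range from -3.54 for Olfr317 to 2.19 for Olfr133. Of its 22 called members 7 shared reads. Over all 206 families, 86 held a receptor higher in A/D, 49 one higher in O/C and 20 both.

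**Figure D2:**
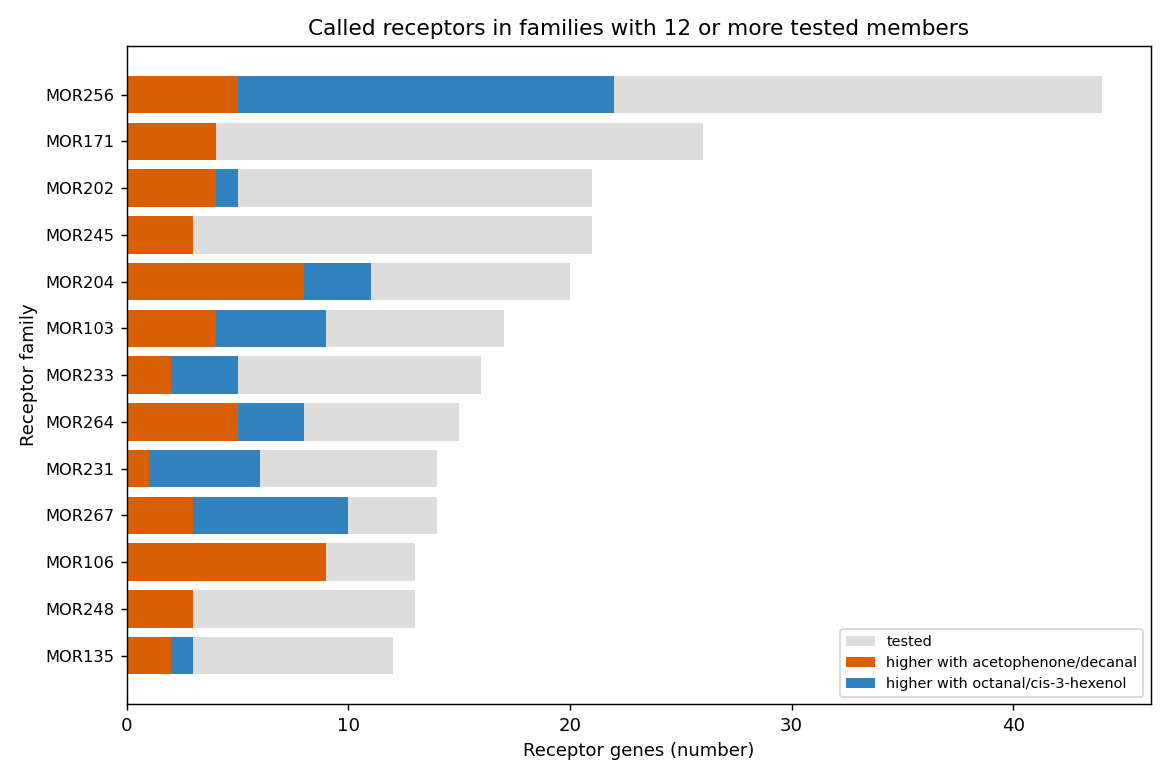
Horizontal bars give the number of receptor genes in each family with 12 or more tested members (grey), with those called higher in A/D in orange and those called higher in O/C in blue. MOR106 has 9 orange and no blue genes of 13, and MOR256 has 5 orange and 17 blue of 44.

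The nearest relative of each receptor was found by identity of the coding sequence, which could be done for 865 of the 867. Of 172 receptors higher in A/D, the nearest relative was called higher in A/D for 76 (44.2%) and higher in O/C for 6 (3.5%). Of the 118 higher in O/C, it was called higher in O/C for 54 (45.8%) and higher in A/D for 8 (6.8%). Over all 865 these shares were 22.4% for A/D and 13.2% for O/C. Close relatives can share reads, and relatives are not independent of each other, so these shares carry no test. Relatives also differed in the size of the pair difference. Olfr874 and Olfr875 are 95.6% identical, and Olfr874 ran from 9.21 to 27.7 CPM in A/D against 0.387 to 0.778 CPM in O/C, while Olfr875 ran from 0.487 to 3.46 CPM in A/D against 0.246 to 0.723 CPM in O/C. Their log2 fold changes were 4.77 ± 0.22 and 1.63 ± 0.29. In Control, Olfr874 had 0.718 to 1.32 CPM and Olfr875 0.95 to 1.17 CPM. Olfr875 lay below Control in A+D (0.487 to 0.653 CPM) and above it in A&D (1.75 to 3.46 CPM). Its pair difference was 0.36 on 1 paper and 2.9 on separate papers, a change that was not called (edgeR adjusted p = 0.934).

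Among 195 pairs of called receptors with at least 75% identity, 146 lay in the same direction and 49 in opposite directions, and at 90% or more 36 of 41 lay in the same direction. The share expected for unrelated called receptors was not computed, so these counts carry no test. Several pairs at 90% or more carry the mark of shared reads, Olfr1360 with Olfr1359 among them. Olfr91 and Olfr92, both of MOR256 and 87.1% identical, were one of the opposite pairs, picked after their values were seen because their counts were whole in most libraries. Olfr91 had 0.428 to 1.42 CPM in A/D and 2.3 to 3.74 CPM in O/C (-1.82 ± 0.27, edgeR adjusted p = 0.000296). Olfr92 had 2.4 to 3.72 CPM in A/D and 0.661 to 1.38 CPM in O/C (1.48 ± 0.25, edgeR adjusted p = 0.000963). Neither overlapped between the pairs. Control had 0.798 to 1.45 CPM for Olfr91 and 1.32 to 3.47 CPM for Olfr92, and overlapped A/D in both. For Olfr91 every O/C library lay above Control, and for Olfr92 the O/C libraries overlapped Control too. Their coding sequences have the same length of 939 bases, and the stretch of 150 bases where they differ most holds 21 differences. It is printed from base 445 to base 594, counted from 1 at the start codon, from the GENCODE M21 transcripts, with the differing bases in capitals, to show how far 2 receptors with opposite differences are alike.
Olfr91: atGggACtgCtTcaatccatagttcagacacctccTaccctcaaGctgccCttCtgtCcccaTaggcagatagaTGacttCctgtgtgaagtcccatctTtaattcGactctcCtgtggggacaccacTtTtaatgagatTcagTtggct
Olfr92: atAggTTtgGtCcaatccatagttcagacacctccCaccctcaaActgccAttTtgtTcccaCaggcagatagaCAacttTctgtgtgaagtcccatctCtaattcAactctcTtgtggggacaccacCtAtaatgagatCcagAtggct

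The pair difference was also read within each way of delivery, which share no odor library. On 1 paper, A+D minus O+C gave 386 called genes (2.01%). Of the 867 receptors 63 (7.27%) were higher in A+D, beside 0.598% of all genes, and 81 (9.34%) were higher in O+C, beside 1.41% of all genes. On separate papers, A&D minus O&C gave 704 called genes (3.66%). Here 93 receptors (10.7%) were higher in A&D, beside 1.25% of all genes, and 89 (10.3%) in O&C, beside 2.41%. Of the 144 receptors called on 1 paper, 124 (86.1%) were also called on separate papers, and of the 182 called on separate papers 68.1% were called on 1 paper, all 124 in the same direction. For genes other than receptors these shares were 62.2% of 238 and 28.6% of 517. Counts over all genes moved with single libraries here. On 1 paper, with 115 higher and 271 lower in all, leaving out A+D 1 gave 608 and 671, O+C 1 gave 44 and 88, and A+D 2 gave 74 and 157. Leaving out O+C 2 or O+C 3 gave 71 or 54 higher. On separate papers, with 241 and 463 in all, leaving out A+D 2, a library of neither group there, gave 651 and 1388. Leaving out A&D 1 gave 92 and 115, A&D 3 gave 104 and 161, O&C 3 gave 79 and 122, and O&C 1 or O&C 2 gave 113 or 157 higher.

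**Figure D3:**
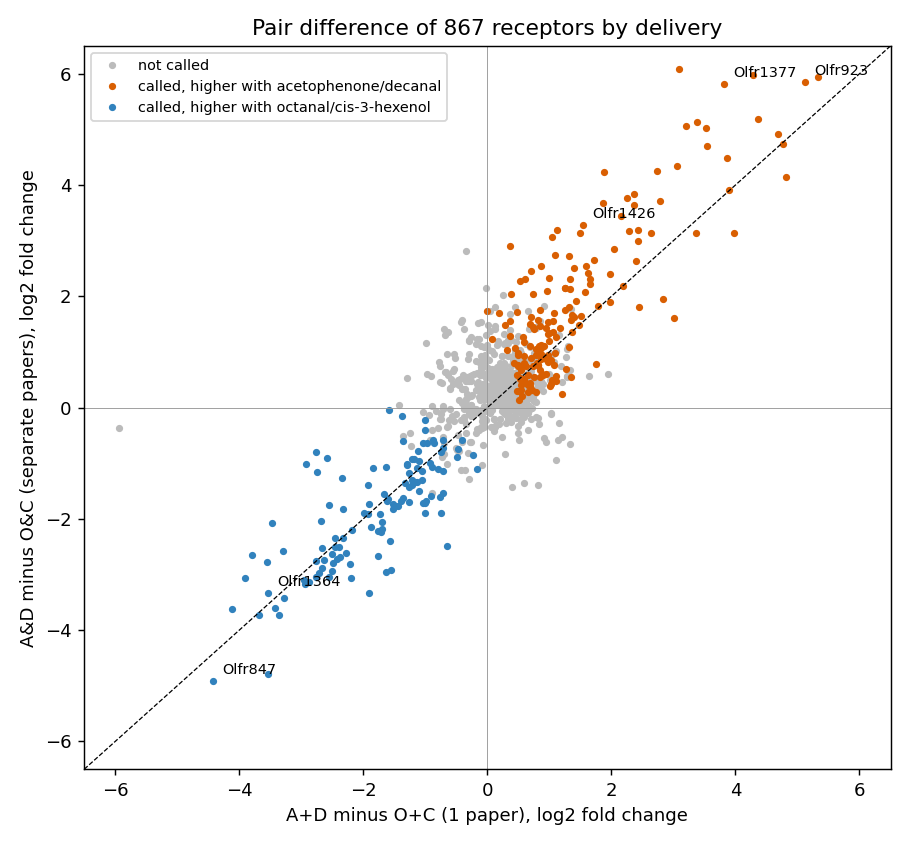
Log2 fold change of the 867 receptors between the pairs on 1 paper (horizontal axis) against that on separate papers (vertical axis), 1 point per receptor, with equality on the dashed line. Orange and blue receptors were called higher in A/D and in O/C over both deliveries, which fixes the part of the plot they can take. Of the 124 receptors called in each delivery, 91 had the larger difference on separate papers.

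Only 2 genes had a pair difference that itself differed between deliveries (0.0104% of genes), while 517 genes had an unadjusted p under 0.05 and the DESeq2 Wald test called 8. Olfr1426 stood at 16.3, 20.3 and 19.9 CPM in A+D, at 64.1, 69.8 and 58.4 CPM in A&D, and between 5.6 and 7.61 CPM in every O/C library. All A&D libraries were above all A+D libraries, and Control lay at 5.03 to 6.69 CPM. The pair difference was 1.54 on 1 paper and 3.28 on separate papers, a change of -1.73 ± 0.22 (edgeR adjusted p = 0.0051). The counts of Olfr1426 carry the mark of shared reads, and the call was lost with scaling on the receptors alone and without the libraries low in Obp2a. The other gene was Nr4a1, described next.

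Nr4a1, an immediate early gene that neurons switch on within minutes of activity, had the firmest difference between the pairs outside the receptors. It stood at 38.5, 33.5 and 41 CPM in A+D, at 78.8, 90.1 and 72.3 CPM in A&D, at 211, 229 and 293 CPM in O+C and at 181, 164 and 209 CPM in O&C. A+D lay in the Control range of 31.1 to 43.6 CPM, A&D lay above it, and every O/C library exceeded every A/D library. The log2 fold change between the pairs was -1.95 ± 0.11 (edgeR adjusted p = 1.24e-09), called in every alternative fit. It was -2.70 on 1 paper and -1.20 on separate papers, a change of -1.50 ± 0.21 (edgeR adjusted p = 0.0115). That change was no longer called without A&D 2 (adjusted p = 0.0712) or O&C 1 (0.053), without A+D 2 and A&D 1 together (0.0858), with a replicate block (0.0601), with scaling on the receptors alone or without the libraries low in Obp2a.

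Of 29 immediate early genes tested, 12 were higher in O/C and 1 in A/D, with a median of -0.27 beside 0.03 for all genes. Over all genes 9.03% were higher in O/C and 6.74% in A/D. The median was -0.49 with scaling on the receptors alone, beside -0.17 for all genes. Without the libraries low in Obp2a 6 were called higher in O/C and 1 in A/D. Fosb, a subunit of the AP-1 transcription factor, ran from 9.02 through 12.2 to 15.2 CPM in O/C, from 0.923 through 5.63 to 7.97 CPM in A/D and from 1.68 to 2.87 CPM in Control (-1.35 ± 0.36, edgeR adjusted p = 0.0242). That call was lost without A&D 3 or O+C 1. Nr4a2, a nuclear receptor of the Nr4a1 family, had 18.2 to 52.4 CPM in O/C and 9.34 to 12.5 CPM in A/D (-1.32 ± 0.23, edgeR adjusted p = 0.00181, lost without the libraries low in Obp2a). Fos and Egr1, the most used markers of neuronal activity, were picked after their values were seen. Fos ran from 38.1 through 81.3 to 175 CPM in O/C, from 20.4 through 37.1 to 49 CPM in A/D and from 26.2 to 52.7 CPM in Control (-1.38 ± 0.32, edgeR adjusted p = 0.0152), and Egr1 had -1.14 ± 0.27 (0.0146). Both overlapped between the pairs through O+C 1, and both calls were lost without A+D 2 and A&D 1 together and without the libraries low in Obp2a. The phosphatase gene Dusp1 (-0.55) and Ier2 (-0.43) were also higher in O/C and kept their calls in every fit, though both overlapped between the pairs. Klf4, a transcription factor of epithelia, was the 1 member higher in A/D (0.70, edgeR adjusted p = 0.00446), a call lost with scaling on the receptors alone.

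Promoters of such genes hold sites for CREB, the transcription factor that cyclic AMP and calcium signals activate. The windows of Nr4a1 and Nr4a2, from 250 bases before to 50 bases after the start in RefSeq on GRCm38.p6, are printed because these 2 were called higher in O/C and hold the most matches of the 9 such genes with a window. Capitals mark the CREB half-site TGACG on either strand (CGTCA on the printed one), and a full site TGACGTCA would count as 2 overlapping matches. Nr4a1 is at chr15:101266596-101266895 on the plus strand and Nr4a2 at chr2:57123954-57124253 on the minus strand.
Nr4a1: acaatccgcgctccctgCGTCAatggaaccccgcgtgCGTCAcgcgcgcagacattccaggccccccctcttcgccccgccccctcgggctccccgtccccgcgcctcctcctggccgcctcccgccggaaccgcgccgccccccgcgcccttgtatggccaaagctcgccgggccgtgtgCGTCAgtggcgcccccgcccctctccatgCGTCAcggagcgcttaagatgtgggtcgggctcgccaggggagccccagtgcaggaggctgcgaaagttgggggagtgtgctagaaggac
Nr4a2: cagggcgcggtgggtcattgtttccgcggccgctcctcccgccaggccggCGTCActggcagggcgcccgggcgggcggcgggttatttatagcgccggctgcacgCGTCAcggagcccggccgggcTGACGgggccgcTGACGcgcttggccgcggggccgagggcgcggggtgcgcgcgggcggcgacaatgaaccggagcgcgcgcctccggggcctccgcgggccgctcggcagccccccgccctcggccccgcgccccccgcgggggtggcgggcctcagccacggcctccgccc
Each window holds 4 half-sites and no full site. Of the 9 genes, 8 hold at least 1 half-site, as do 31.0% of the 13501 tested genes with a window and 23.0% of all 27025 genes, taking for a gene the window with most matches. Of all 24 immediate early genes tested with a window, whichever way they differed, 16 hold one (66.7%). At least 4 half-sites are in 0.474% of the tested genes and in 12.5% of these 24. A match is a description of the letters and not of binding.

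Of 14 genes that sensory neurons express more when they are active, 9 were called higher in O/C and none in A/D, with a median of -0.54. The shares over all genes were 9.03% and 6.74%. With scaling on the receptors alone 10 of the 14 were higher in O/C and 0 in A/D, where 3561 and 207 of all 19229 genes were. Measured from the median of all genes, the median of the list was -0.57 in both scalings. Some of the 14 were put on the list with earlier results of these samples known, so the list is no independent evidence of a direction. Kcng1, a subunit of a voltage-gated potassium channel, ran from 52.5 through 66.3 to 88.7 CPM in O/C, from 20.9 through 29.5 to 43.0 CPM in A/D and from 6.73 to 12 CPM in Control. The 3 sets of libraries did not overlap, and the log2 fold change between the pairs was -1.24 ± 0.15 (edgeR adjusted p = 7.71e-05). Sema7a, an axon guidance molecule, had 20.4 to 36.1 CPM in O/C, 9.94 to 17.4 CPM in A/D and 6.16 to 9.09 CPM in Control (-1.07 ± 0.14), again without overlap. Kirrel2 and Kirrel3, the adhesion molecules by which axons of like neurons sort, had -0.70 ± 0.13 and -0.44 ± 0.08. Kirrel2 ran from 459 through 605 to 850 CPM in O/C, from 269 through 393 to 481 CPM in A/D and from 177 to 223 CPM in Control. Heg1 (-0.73) and Lrrc3b (-0.96) were called too, Lrrc3b not without the libraries low in Obp2a. Kirrel3, Heg1 and Lrrc3b carry the mark of shared reads.

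Of 21 genes that feed back on MAPK and CREB signalling, 7 were higher in O/C and none in A/D, with a median of -0.08. This list and the 2 below are read beside 9.03% of all genes higher in O/C and 6.74% higher in A/D. Nfil3, a repressor that also counts among the clock genes below, had 41.0 to 60.3 CPM in O/C and 28.7 to 39.9 CPM in A/D (-0.71 ± 0.11, edgeR adjusted p = 0.00039). Dusp14, a MAP kinase phosphatase, had 420 to 681 CPM in O/C, 282 to 450 CPM in A/D and 210 to 234 CPM in Control (-0.59 ± 0.10). Sik1, a kinase that CREB induces, had -0.80 ± 0.20 (edgeR adjusted p = 0.0129). Of 20 clock genes 6 were higher in O/C and none in A/D, with a median of -0.06. The repressors Cry2 (-0.62) and Cry1 (-0.69) did not overlap between the pairs, and Control lay at the level of A/D in both. Without the libraries low in Obp2a 3 members of each of these lists were called, and without A+D 2 and A&D 1 together 4 feedback genes and 3 clock genes were higher in O/C and 1 clock gene in A/D. Of 25 genes of the mTOR and S6 kinase pathway, which leads to S6 phosphorylation, only Akt1 was called (-0.37, edgeR adjusted p = 0.036). It was not called without A&D 1, O+C 1, O&C 1 or O&C 3, among other alternatives.

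**Figure D4:**
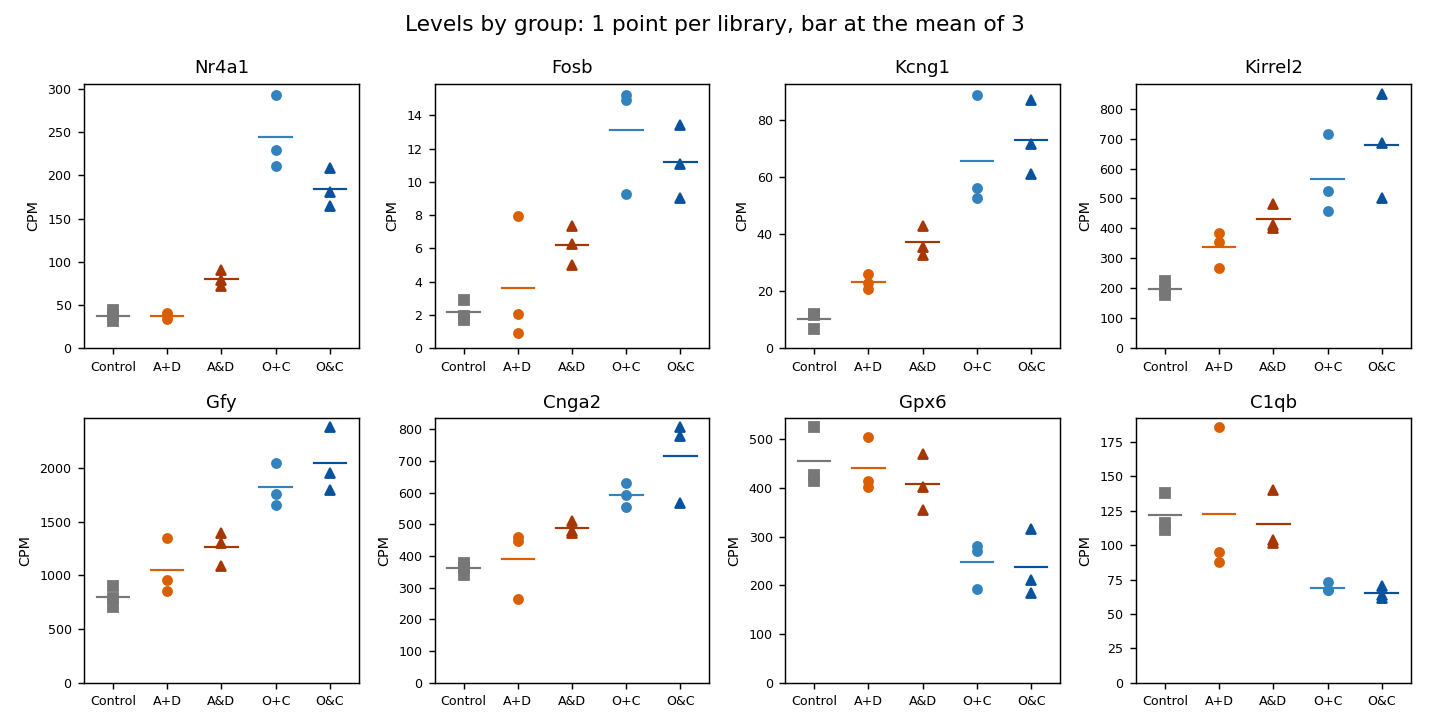
CPM of 8 genes in each group, 1 point per library and a bar at the mean of 3, each panel with its own vertical axis from 0. Nr4a1, Fosb, Kcng1, Kirrel2, Gfy and Cnga2 are higher in O/C than in A/D, with A+D near Control for Nr4a1. Gpx6 and C1qb are lower in O/C than in A/D and Control.

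Among the genes of odor signalling and of the mature neuron, more members were called higher in O/C than in A/D. These lists, with those of synaptic release and receptor choice, are read beside 9.03% of all genes higher in O/C and 6.74% in A/D. Of 21 genes of olfactory signal transduction 12 were higher in O/C and 1 in A/D, with a median of -0.40. The 1 exception was Rgs5, a regulator of G protein signalling that blood vessel walls also express. Cnga2, a subunit of the channel that cyclic AMP opens in the cilia, ran from 555 through 612 to 807 CPM in O/C, from 266 through 466 to 512 CPM in A/D and from 341 to 377 CPM in Control (-0.58 ± 0.12, edgeR adjusted p = 0.00395). Slc24a4, the exchanger that clears calcium after a response, had 30.4 to 41.1 CPM in O/C and 14.2 to 26.2 CPM in A/D (-0.68 ± 0.12). Adcy3, the adenylyl cyclase of the pathway, had -0.73, the phosphodiesterase Pde1c -0.67, Ric8b, which folds the olfactory G protein, -0.59 and the G protein Gnal -0.40. None of these 6 overlapped between the pairs, and Adcy3, Pde1c and Gnal carry the mark of shared reads.

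Of 24 mature neuron genes 12 were higher in O/C and none in A/D, with a median of -0.33. Gfy, a Golgi protein of these neurons, ran from 1657 through 1872 to 2376 CPM in O/C, from 852 through 1196 to 1396 CPM in A/D and from 708 to 897 CPM in Control (-0.74 ± 0.11, edgeR adjusted p = 0.000394). The libraries of the pairs did not overlap. Omp itself had -0.43 ± 0.10 (edgeR adjusted p = 0.00899). Of 22 genes of glutamate and synaptic release 8 were higher in O/C and none in A/D, among them the synapsins Syn2 (-0.83 ± 0.12) and Syn1 (-0.81 ± 0.12) and the vesicle protein Vamp2 (-0.45 ± 0.07). The regulators of receptor choice gave 7 higher in O/C and 1 in A/D of 21, led by the transcription factor Ebf4 at 103 to 138 CPM in O/C and 69.5 to 91.8 CPM in A/D (-0.54 ± 0.08, edgeR adjusted p = 0.000262). Without the libraries low in Obp2a the counts were 0 and 11 in signal transduction, 0 and 9 in mature neurons, 2 and 6 in synaptic release and 0 and 3 in receptor choice, for A/D and O/C.

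**Figure D5:**
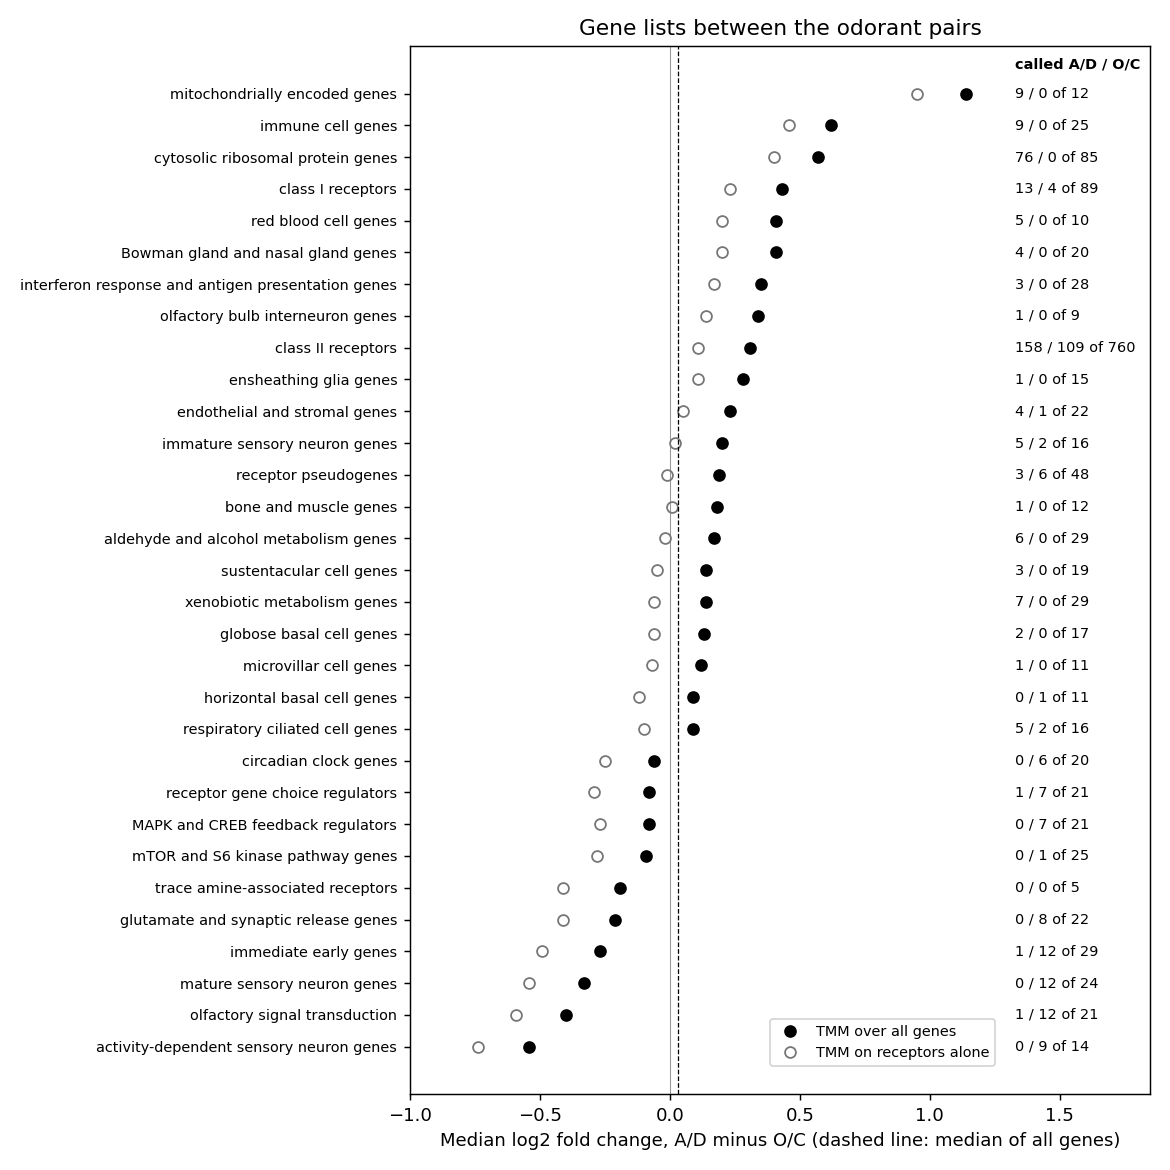
Median log2 fold change between the pairs for each gene list (horizontal axis), with filled points under TMM scaling over all genes and open points with TMM scaling on the receptors alone; the dashed line is the median of all genes. Numbers at the right give the members called higher in A/D and in O/C of those tested. Lists of activity genes, mature neurons, odor signalling and synaptic release lie left of the line. The filled point of immature neuron genes lies to its right, and mitochondrial, immune and ribosomal genes lie farthest to the right. The zone lists and the receptors reported for an odorant are not drawn.

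Lists of cells other than mature neurons are read beside 6.74% of all genes called higher in A/D and 9.03% called higher in O/C. Of 20 gland genes 4 were higher in A/D and none in O/C, with a median of 0.41. With scaling on the receptors alone 2 were higher in each direction and the median was 0.20. The median was 0 on 1 paper and 0.64 on separate papers. Against Control the median of the list was -0.66 in O/C and -0.09 in A/D. Gpx6, a glutathione peroxidase of Bowman glands, ran from 355 through 408 to 505 CPM in A/D, from 185 through 241 to 316 CPM in O/C and from 414 to 526 CPM in Control (0.81 ± 0.13, edgeR adjusted p = 0.000886). The A/D libraries overlapped Control, and all O/C libraries lay below both. Bpifb6, a secreted lipid-binding protein, had 0.63 ± 0.12. Of 19 sustentacular genes, the supporting cells of the epithelium, 3 were higher in A/D and none in O/C, with a median of 0.14. It became -0.05 with scaling on the receptors alone, and in both scalings it lay 0.12 above the median of all genes. Sult1c1, a sulfotransferase, had 86.1 to 117 CPM in A/D, 58.9 to 77.0 CPM in O/C and 121 to 137 CPM in Control (0.60 ± 0.09, edgeR adjusted p = 0.000229), called in every fit.

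Of 25 immune genes 9 were higher in A/D and none in O/C, with a median of 0.62 (0.46 with scaling on the receptors alone). Against Control the median of the list was -0.84 in O/C and -0.16 in A/D. C1qb, a complement protein of macrophages, ran from 88.1 through 103 to 186 CPM in A/D, from 61.8 through 67.3 to 73.2 CPM in O/C and from 111 to 138 CPM in Control (0.82 ± 0.15, edgeR adjusted p = 0.00277). The summed level of the list was 1227 to 2580 CPM in A/D, 908 to 1302 CPM in O/C and 1579 to 2351 CPM in Control. With scaling on the receptors alone 1 of the 9 calls was kept, and 4 without the libraries low in Obp2a. Of 10 red blood cell genes 5 were higher in A/D and none in O/C, with a summed level of 18231 to 34371 CPM in A/D, 11355 to 21784 CPM in O/C and 19129 to 29902 CPM in Control. Their globins Hbb-bs (0.85) and Hba-a1 (0.83) have near-identical copies and share reads. The enzymes of xenobiotic metabolism, which clear odorants and toxins, gave 7 higher in A/D and none in O/C of 29, and those of aldehyde and alcohol metabolism, which could act on these odorants, 6 and none of 29. With scaling on the receptors alone these became 1 and 2, and 0 and 1, where 207 and 3561 of all 19229 genes were called. The larger count turned to O/C in each of these lists. Over all genes it was that of O/C in both scalings, with 1296 and 1736 under TMM over all genes. Measured from the median of all genes, the xenobiotic median was 0.11 in both scalings and the aldehyde and alcohol median 0.14 and 0.15. Without the libraries low in Obp2a 3 and 1 members were called, all higher in A/D.

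The remaining lists held few calls, several of them near the shares of all genes. Respiratory ciliated cells gave 5 higher in A/D and 2 higher in O/C of 16, with Sntn (0.74) and Tmem212 (0.82) toward A/D and Rsph4a (-0.42) toward O/C, all without overlap. Of 16 immature neuron genes 5 were higher in A/D, among them the growth protein Gap43 (0.34), and 2 in O/C, the transcription factor Lhx2 (-0.37) and the actin binder Dbn1 (-0.48). All 5 calls toward A/D were lost with scaling on the receptors alone, where the ciliated cells gave 2 in each direction. Globose basal cells gave 2 and 0 of 17, horizontal basal cells 0 and 1 of 11, microvillar cells 1 and 0 of 11, ensheathing glia 1 and 0 of 15, endothelial and stromal cells 4 and 1 of 22, bone and muscle 1 and 0 of 12, the interferon response 3 and 0 of 28, and bulb interneurons 1 and 0 of 9, for A/D and O/C. With scaling on the receptors alone no more than 1 member of any of these 8 lists was higher in A/D. Dorsal and ventral zone genes, which mark where in the epithelium a neuron sits, gave 0 and 1 of 7 and 0 and 1 of 9.

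Outside the lists, some of the largest differences without overlap toward A/D were in genes that macrophages express. Wfdc17, a secreted protein of activated macrophages, ran from 5.81 through 8.09 to 19.7 CPM in A/D, from 3.52 through 3.71 to 4.86 CPM in O/C and from 7.1 to 8.43 CPM in Control (1.28 ± 0.22, edgeR adjusted p = 0.00121), called in every fit. Wfdc17 and Ms4a6c carry the mark of shared reads. Fcgr4 (1.45), an antibody receptor, Aif1 (1.32), a microglia and macrophage marker, Ms4a6c (1.22) and Ly86 (1.14) were called too. Each of these 4 lost its call without the libraries low in Obp2a, and Aif1 and Ly86 also without A&D 1 or O&C 3, and Ms4a6c without O&C 3. Aif1 lost it without any 1 of the 3 O+C libraries or O&C 1 as well, and Aif1 and Ly86 with scaling on the receptors alone. Toward O/C, beside Nr4a1, Fosb and Nr4a2, stood Gm13769, a gene model with shared reads, at 17.7 to 45.0 CPM in O/C and 3.83 to 7.14 CPM in A/D (-2.63 ± 0.21, edgeR adjusted p = 4.71e-07), and the peptidase gene Pm20d2 (-1.37 ± 0.25), which was not called without the libraries low in Obp2a. The remaining genes of the 10 in each direction had means of a few CPM or less, and most are gene models without a known role.

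Ribosomal protein and mitochondrial transcripts moved with the pair. Over all genes 6.74% were higher in A/D and 9.03% in O/C, with a median of 0.03. Of 85 ribosomal protein genes 76 were higher in A/D and none in O/C, with a median of 0.57. They took 1.23% to 2.15% of the counts in A/D, 0.899% to 1.13% in O/C and 1.1% to 1.51% in Control, so the pairs did not overlap. Mitochondrially encoded genes gave 9 of 12 higher in A/D and none in O/C, with a median of 1.14, and took 0.0856% to 0.196% of the counts in A/D and 0.0487% to 0.11% in O/C. The 76 calls became 37 without A+D 2 and A&D 1 together, 18 without the libraries low in Obp2a and 1 with scaling on the receptors alone. The 9 calls became 2, 0 and 6. Of all genes, 271 were higher in A/D without the libraries low in Obp2a and 207 with scaling on the receptors alone. The ribosomal median lay 0.54 above that of all genes in the main fit, and 0.33, 0.35 and 0.56 above it in these fits. For mitochondrial genes it lay 1.11 above, and 0.67, 0.71 and 1.12 above. The part of these transcripts in the differences of other genes was not tested.

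Receptor transcripts as a whole took 0.32% to 0.486% of the counts in A/D, with a median of 0.445%, and 0.423% to 0.574% in O/C, with a median of 0.476%. The mean was 0.428% ± 0.06 (SD, n = 6) and 0.495% ± 0.0627, and Control had 0.309% to 0.365%. The ranges of the pairs overlapped, and the difference of -0.0679 percentage points gave a two-sided p of 0.0952 in the exact permutation test over 924 splits.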

How the data were processed

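RNA co-precipitated with phosphorylated S6 was sequenced from 15 libraries, 3 in each of 5 groups. The deposited values are expected counts (estimated read numbers per gene, often fractional) and are not scaled for depth. STAR 2.7.10b, Salmon 1.10.1, R 4.4.2 and the build GRCm39 are named in the submitters' processing notes; the annotation and the strand setting are not given in the sources used here.

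Counts were rounded to whole numbers. Genes were kept by edgeR's filterByExpr (minimum count 10), library sizes were scaled by TMM, and the robust quasi-likelihood F test of edgeR 4.0.16 in R 4.3.3 was run with a mean for each of the 5 groups and a common estimate of the spread. There were 6 comparisons: the pairs over both deliveries, on 1 paper, on separate papers, the difference of these deliveries, and each pair against Control, whose values only stand beside the others since they share the Control libraries. Tests were two-sided with Benjamini-Hochberg adjustment over all 19229 genes, and a standard error was obtained by dividing the log2 fold change by the root of F. The scripts were tested on simulated data. Alternatives were DESeq2 1.42.0 (its size factors, and its Wald test), TMM on the receptors alone, no filter, the 12 odor libraries alone, a replicate block, the libraries with Obp2a under 10 CPM left out or that split as a term, and each library left out. Of these, leaving out A+D 2 with A&D 1, or the libraries with Gad1 above 1 CPM, was chosen after seeing the data. The last of these fits holds no A+D library, so the pair difference over both deliveries could not be examined there. A call kept in every fit refers to the other fits.

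Symbols were found for 52029 of 57010 gene identifiers. Receptors are genes named Olfr and a number; a trailing letter was allowed after the first fit, which added Olfr715b. Classes and families come from the MOR synonyms in the RefSeq name table of GRCm38.p6. A gene whose counts were whole, to the 3 decimals given, in fewer than 8 libraries is taken to share reads. Named genes are the 12 receptors and 10 other genes with the largest change in each direction among those called and not overlapping, up to 6 per list by smallest p, the genes with a called difference between deliveries, Olfr2 and the 6 acetophenone receptors; others are marked as chosen after their values were seen, also Omp, Fos, Egr1, Olfr745, Olfr746, Olfr736, Olfr748 and Olfr133. The members and lists were chosen with earlier results of these data known, and the bulb interneuron list was added after the files were seen.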

Additional observations from a re-analysis of the deposited data

Results flagged for a closer look

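The pair difference differed between the 2 ways of delivery for 2 genes, by a test of that difference itself in edgeR. For Olfr1426 it was smaller on 1 paper than on separate papers by a log2 value of -1.73 (adjusted p = 0.0051). For Nr4a1 the log2 value was -1.5 (adjusted p = 0.0115), since the excess of O/C over A/D was larger on 1 paper. Over the alternative fits the adjusted p of both reached 0.17 at most, and neither value changed sign. No cause was tested for either.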

How the results depend on the processing

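Counts are given as higher in A/D and higher in O/C. With TMM on the receptors alone they were 207 and 3561 over all genes (median of all genes -0.17), 107 higher receptors, 97 and 3414 other genes, 58 higher on 1 paper, 95 and 2088 on separate papers, and 0 genes that depended on delivery (2 in the main fit). DESeq2's Wald test gave 487 and 629 on 1 paper, 475 and 997 on separate papers, and 8 that depended on delivery. No filter gave 861 and 799, 813 and 947, and 204, with 33222 genes tested. The 12 odor libraries alone gave 267 higher in O&C. The replicate block gave 73 and 151 on 1 paper, 148 and 249 on separate papers, and 1 that depended on delivery; replicate numbers did not pair the libraries (correlations of same-numbered libraries from -0.483 to 0.173, with 1 of 15 correlating best with its own number). Without the libraries low in Obp2a they were 271 and 483 over all genes, 88 higher receptors, 182 and 373 other genes, 141 lower on 1 paper, 42 and 97 on separate papers, and 0; fewer libraries enter there. That split as a term gave 396 and 733 on separate papers. Without A+D 2 and A&D 1 they were 739 higher genes, 595 higher other genes, 159 lower on 1 paper, and 1. Without the libraries with Gad1 above 1 CPM, separate papers gave 551 and 923.

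Leaving out 1 library gave 553 to 1984 and 1103 to 2309 over all genes, 122 to 174 and 108 to 122 receptors, 429 to 1811 and 988 to 2188 other genes, 44 to 608 and 88 to 671 on 1 paper, 79 to 651 and 115 to 1388 on separate papers, 1 to 4 that depended on delivery, and a receptor share difference of -0.0823 to -0.0463 points. No called named gene changed sign in any of these fits. The larger count of receptors turned to O/C with TMM on the receptors alone (107 and 140) and without the libraries low in Obp2a (88 and 105), and that of all genes on 1 paper turned to A+D with no filter. Medians of several lists crossed 0 with TMM on the receptors alone, those of sustentacular cells, xenobiotic metabolism and aldehyde metabolism among them. Of 181 called named genes 89 kept their calls in every fit that tested them. Depth was alike in all libraries; receptors of few counts have wide errors.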
